A study of Mus musculus with 24 samples.

Results

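The MYC, MAX and MXD network was followed in mouse lymph node B cells that had lost the transcription factors PU.1, SpiB or both. Its members were taken as 9 genes matched by symbol in the gene-level read counts, out of 27179 genes counted: Myc, Mycn, Max, Mxd1, Mxd3, Mxd4, Mxi1, Mnt and Mlx. All 9 were found, and 8 of them passed the filter on low counts at every stage. Mycn did not pass it at any stage.

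RNA was sequenced from 24 libraries, 2 biological replicates of each of 4 genotypes at 3 stages. B cells were either naive, straight from the lymph node, or had been kept for 48 h with CD40L and IL-4, or for 48 h with LPS and IL-4. CD40L stands in for help from T cells, LPS is a bacterial product that engages TLR4, and IL-4 is a T cell cytokine. The question was how gene expression in B cells, resting or activated, depends on PU.1 and SpiB, 2 related ETS factors.

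Control mice carried the Cd23-Cre transgene and intact PU.1 and SpiB genes (Cd23T/+). PU.1 cKO mice were Spi1fl/fl Cd23T/+, where Spi1 is the gene for PU.1. SpiB KO mice were Spi1fl/fl Cd23+/+ Spib-/-, so they had floxed Spi1 but no Cre and lacked SpiB in every cell. PU.1 SpiB DKO mice were Spi1fl/fl Cd23T/+ Spib-/-. All were on a C57BL/6 background. Cd23 regulatory sequences drive Cre from the transitional B cell stage onward, so Spi1 is removed late, while Spib is absent from the germ line. According to the study, naive DKO cells still kept part of the floxed Spi1 exon, which was gone after culture, so a naive DKO value comes from an incomplete loss of PU.1. Cells for RNA were sorted by the study as B220+ and negative for CD3, a T cell marker, and CD138, a plasma cell marker. The SpiB KO group also differed from the other 3 in lacking the Cre transgene.

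MYC is a basic helix-loop-helix leucine zipper protein that binds E-box DNA, with CACGTG as its best known form, only as a dimer with MAX. MYC-MAX dimers recruit coactivators and raise genes for ribosome making, nucleotide synthesis and growth, whereas the MXD proteins (MXD1, MXD3, MXD4 and MXI1) and MNT also pair with MAX and bring SIN3 and histone deacetylases to the same sites. In B cells MYC is induced on activation and then declines, and MXD1 is known for rising as cells leave the cycle and differentiate. MLX is a MAX-like partner for MNT, MXD1 and MXD4 and for the glucose-responsive MLXIP proteins, and MYCN is a MYC paralog of embryonic and progenitor cells.

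Spi1 and Spib transcripts differed between genotypes in the direction of the labels, with one exception. Spib was at 211 to 525 CPM (counts in a library scaled to a common total) in stimulated control libraries and at 9.05 to 37 CPM in stimulated SpiB KO and DKO libraries. Spi1 was lower in every PU.1 cKO library than in every control library of its stage, and lower in the naive DKO (103 and 110 CPM) than in naive control (155 and 174 CPM), though above naive PU.1 cKO (59.5 and 53.2 CPM). In LPS-stimulated DKO cells Spi1 was at 63.9 and 58.9 CPM, next to 72 and 60.7 CPM in control, so there the transcript did not separate DKO from control. Both DKO libraries were above LPS-stimulated PU.1 cKO (44.2 and 41.2 CPM), which has the same floxed Spi1 and Cre. From read coverage of the floxed exon, the study reported that deletion with LPS and IL-4 was about as efficient as with CD40L and IL-4. The extent of deletion was not tested again here. These are counts over the whole gene, and part of Spi1 lies outside the floxed segment. The summed level of 6 B cell markers was 10900 to 11100 CPM in naive control and 3300 to 3730 CPM in LPS control, and none of the 6 was at 0 in any group. In naive cells it was lower than control in SpiB KO (9530 to 9780 CPM) and in DKO (8190 to 8840 CPM). With CD40L it was lower in PU.1 cKO (4960 to 5300 CPM) and DKO (3660 to 4700 CPM) than in control (5500 to 7110 CPM). With LPS it was lower than control in PU.1 cKO (2790 to 2950 CPM) and higher in SpiB KO (3790 to 4140 CPM). The LPS-stimulated DKO (3630 to 3640 CPM) lay within control. Marker transcripts of other cell types differed with genotype in naive cells. The sum of 7 plasmacytoid dendritic cell markers ran from 208 to 344 CPM in control, 1200 to 1470 in SpiB KO and 1590 to 1680 in DKO, and that of 8 T cell markers from 24.8 to 69.8 CPM, 369 to 448 CPM and 507 to 511 CPM. Libraries held 9598674 to 73658850 counts. PU.1 cKO replicate 2 stood apart in the CD40L series, with 61640683 counts against a stage median of 10070288. Rn45s, a ribosomal RNA precursor, took 6.64% of the counts of CD40L DKO replicate 1, against 0.416% to 1.86% in the other libraries of that stage.

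In the annotation of GRCm38, Myc (Entrez 17869) lies at chr15:61985341-61990361, Mycn (18109) at chr12:12936093-12941836 and Max (17187) at chr12:76937269-76962323. The MXD genes are Mxd1 (17119) at chr6:86647044-86669234, Mxd3 (17121) at chr13:55325170-55329900, Mxd4 (17122) at chr5:34176580-34187710 and Mxi1 (17859) at chr19:53310128-53373293. Mnt (17428) is at chr11:74830806-74845725 and Mlx (21428) at chr11:101086707-101092207. Counting was done over exons. Mxd3 shares 103 bases with Prelid1 and Mlx shares 67 bases with Psmc3ip, both counted genes, and whether reads were assigned by strand was not stated, so a small part of these values is uncertain.

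The windows before the start sites of the members that changed in the combined knockout are shown because PU.1 and SpiB bind sequences built on GAGGAA and MYC, MXD and MNT dimers bind CACGTG. Each runs from 250 bases before to 50 bases after the RefSeq start (GRCm38.p6), on the strand of the gene, all of them minus except Mnt, and capitals mark GAGGAA or CACGTG found on either strand. The windows are chr6:86669110-86669409 for Mxd1, chr13:55329682-55329981 for Mxd3, chr5:34187661-34187960 for Mxd4 and chr11:74830674-74830973 for Mnt.
Mxd1: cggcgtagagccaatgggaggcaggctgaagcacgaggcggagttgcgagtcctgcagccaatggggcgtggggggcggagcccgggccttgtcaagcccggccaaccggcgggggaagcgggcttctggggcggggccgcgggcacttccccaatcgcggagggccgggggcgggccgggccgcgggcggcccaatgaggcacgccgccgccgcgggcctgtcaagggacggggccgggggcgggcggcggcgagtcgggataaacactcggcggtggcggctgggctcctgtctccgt
Mxd3: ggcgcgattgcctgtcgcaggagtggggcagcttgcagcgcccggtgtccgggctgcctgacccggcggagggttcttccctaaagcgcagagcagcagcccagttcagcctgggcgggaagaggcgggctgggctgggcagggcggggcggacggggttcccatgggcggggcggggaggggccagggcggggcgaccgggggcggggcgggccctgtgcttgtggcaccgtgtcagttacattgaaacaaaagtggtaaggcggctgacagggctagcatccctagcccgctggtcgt
Mxd4: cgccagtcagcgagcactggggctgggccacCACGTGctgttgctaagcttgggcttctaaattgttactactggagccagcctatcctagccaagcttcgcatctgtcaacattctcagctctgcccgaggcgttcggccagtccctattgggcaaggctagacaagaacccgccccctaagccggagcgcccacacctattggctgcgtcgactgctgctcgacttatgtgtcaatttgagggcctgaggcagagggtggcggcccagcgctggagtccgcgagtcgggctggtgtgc
Mnt: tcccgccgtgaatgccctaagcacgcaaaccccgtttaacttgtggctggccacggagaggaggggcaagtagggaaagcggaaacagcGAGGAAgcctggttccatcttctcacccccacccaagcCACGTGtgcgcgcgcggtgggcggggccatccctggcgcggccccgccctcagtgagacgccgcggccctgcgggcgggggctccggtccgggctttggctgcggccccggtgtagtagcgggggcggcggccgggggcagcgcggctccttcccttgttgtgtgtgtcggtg
Neither motif was in the Mxd1 or Mxd3 window. The Mxd4 window held CACGTG from base -219, and the Mnt window held GAGGAA from base -161 and CACGTG from base -123, counted from the start. Among the members not shown, Max held both motifs, Mlx held CACGTG, 1 of 3 Mxi1 windows held GAGGAA and Mycn held neither. A RefSeq window was found for 8 of the 9 members, all except Myc. GAGGAA occurs in 28.3% and CACGTG in 7.15% of 32851 promoter windows of this length, so a match here is a description of the letters and not of a bound site.

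In naive control cells the network was led by Max, Mlx, Mxd4, Myc and Mnt. Levels are compared between genes only on the log2 RPKM scale, which divides by gene length. On that scale Max was at 6.22 and 6.12, Mlx at 5.36 and 5.17, Mxd4 at 5.25 and 5.18, Myc at 4.92 and 4.60 and Mnt at 4.17 and 4.30 in the 2 naive control libraries. Mlx and Mxd4 did not differ beyond their spread. Mxi1 (1.33 and 1.20) and Mxd1 (1.27 and 1.40) were several log2 units lower and overlapped, and Mxd3 was lowest, at -1.50 and -0.53.

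The order changed after culture. With CD40L and IL-4, Max stayed first (6.15 and 6.27), followed by Mxd4 (5.36 and 5.38) and Myc (5.24 and 5.10). Mxd3 reached 4.92 and 5.01, close to Myc. With LPS and IL-4, Myc was first at 6.48 and 6.61, ahead of Max at 6.10 and 6.25, and Mxd4 was at 4.10 and 3.07 in 2 libraries that were far apart. Log2 RPKM was given for 12634 genes in the LPS libraries and for 13569 genes in the naive and in the CD40L libraries. Whether the stages were normalized together was not stated. Log2 RPKM therefore ranks genes within a stage here and is not compared between stages.

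**Figure D1:**
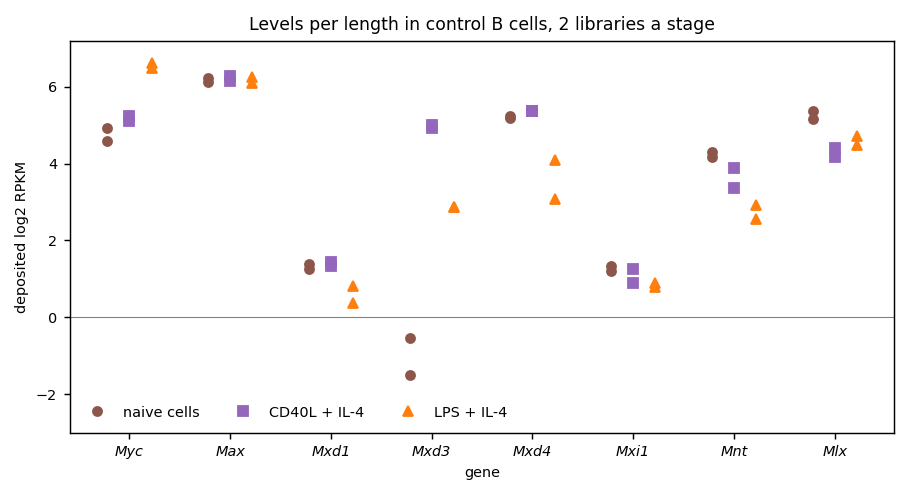
Deposited log2 RPKM (vertical axis) of the 8 members that passed the count filter in control B cells, by stage, each point 1 library. Myc lies above Max in the LPS libraries and below it in the naive and CD40L libraries, and Mxd3 is lowest only in naive cells.

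Between naive and CD40L-stimulated control cells, Mxd3 rose and Mlx fell. CD40L libraries were counted in a table of their own, so stage and table of origin cannot be told apart here. Mxd3, an MXD family member known from cycling cells, was at 0.381 and 0.744 CPM in naive control libraries and at 40.2 and 42.5 CPM with CD40L and IL-4. The groups were far apart, with a log2 fold change of 6.18 (SE 0.31, edgeR adjusted p = 4.16e-12), or 72.7-fold. The naive side rested on 5 and 10 reads. Mlx fell by 0.94 on the log2 scale (SE 0.15, edgeR adjusted p = 3.1e-05), from 80.8 and 70.4 to 36.3 and 42.7 CPM. These were 2 of 8 tested members, called at an adjusted p under 0.15, a fold over 1.5 and a mean log2 RPKM above 0, where 35.3% of all genes were called in this comparison.

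Myc was higher with CD40L in both libraries, at 95.6 and 82.9 CPM against 72.1 and 57.6 CPM. Its log2 fold change of 0.46 (SE 0.18, edgeR adjusted p = 0.0378) passed the adjusted p but was under the fold threshold, which it passed without naive control replicate 1 (0.63, adjusted p = 0.0261). Mnt was at 82.6 and 90.7 CPM in naive cells and 71.2 and 48.7 CPM with CD40L, without overlap, and its log2 fold change of -0.53 (edgeR adjusted p = 0.0503) was under the fold threshold. It was called by voom (-0.60, adjusted p = 0.0236), without CD40L control replicate 1 (-0.83, 0.0175) and without naive control replicate 1 (-0.60, 0.0788). Max was at 154 and 142 CPM in naive cells and 148 and 151 CPM with CD40L, and the ranges of Mxi1 overlapped.

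With LPS and IL-4, 6 of 8 members were called against naive control, 2 higher and 4 lower, where 47.6% of all genes were called. Myc rose to 207 and 245 CPM, a log2 fold change of 1.80 (SE 0.18, edgeR adjusted p = 4.29e-08), or 3.48-fold. Mxd3 rose to 8.79 and 8.52 CPM, 15.2-fold (edgeR adjusted p = 2.23e-09). Mxd4, Mnt, Mlx and Mxd1 fell.

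Mxd4 fell from 44.2 and 42.9 CPM in naive cells to 19.0 and 8.96 CPM with LPS, 3.16-fold lower (log2 fold change -1.66, SE 0.24, edgeR adjusted p = 5.63e-06). Mnt, the broadly expressed MAX partner that opposes MYC in most cells, fell from 82.6 and 90.7 to 33.3 and 26.2 CPM, 2.92-fold lower (edgeR adjusted p = 4.54e-06). In both genes every LPS library was under every naive library. Mlx was 1.63-fold lower (edgeR adjusted p = 0.000282), and without LPS control replicate 1 its log2 fold change was -0.58, just under the fold threshold. Mxd1 was 1.73-fold lower, at 7.71 and 5.34 CPM against 10.5 and 11.7 CPM (edgeR adjusted p = 0.0223), a call lost without LPS control replicate 2, where the log2 fold change was -0.52 and the adjusted p 0.214.

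Between the 2 kinds of stimulation, 1 member was called higher and 4 lower with LPS, where 31.2% of all genes were called. Myc was 2.53-fold higher with LPS than with CD40L (log2 fold change 1.34, SE 0.18, edgeR adjusted p = 7.27e-06). Mxd3 was 4.78-fold lower (edgeR adjusted p = 1.23e-07), Mxd4 3.68-fold (edgeR adjusted p = 5.14e-06), Mnt 2.03-fold (edgeR adjusted p = 0.00094) and Mxd1 2.01-fold (edgeR adjusted p = 0.00861). In these 5 genes the LPS and CD40L control libraries did not overlap. They did not overlap in Mxi1 either (9.83 and 8.84 against 10.9 and 14.1 CPM), which was not called. The share of all genes without overlap was not computed. CD40L libraries were counted in a table of their own, apart from the naive and LPS libraries. Kind of stimulation and table of origin therefore cannot be told apart in this comparison.

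**Figure D2:**
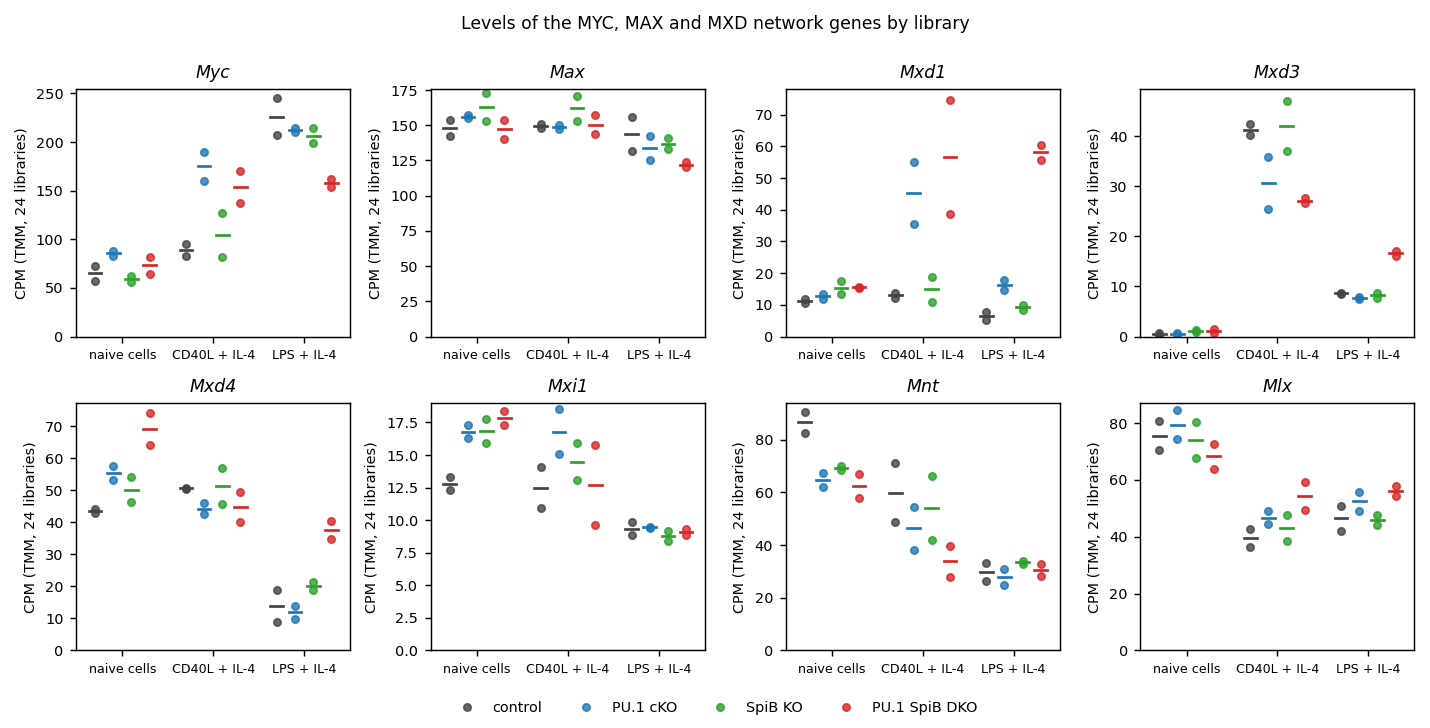
CPM (vertical axis, linear, from 0) of the 8 tested members in all 24 libraries, scaled over the whole series, with a panel for each gene, stages along the horizontal axis and a colour for each genotype. Points are libraries and short bars the mean of the 2 libraries of a group, and Mxd1 in PU.1 cKO and DKO libraries lies above control after either stimulation.

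In the comparisons of genotypes, the largest log2 fold change of any member belonged to Mxd1, which rose after stimulation in both groups that had lost PU.1. MXD1 opposes MYC at shared sites. In LPS-stimulated cells Mxd1 was at 8.04 and 5.40 CPM in control, 15.2 and 18.5 with PU.1 alone lost, 8.75 and 10.2 with SpiB alone lost and 65.7 and 59.9 in DKO. The 4 groups did not overlap in any pair.

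Against LPS control, Mxd1 rose 2.56-fold in PU.1 cKO (log2 fold change 1.35, SE 0.18, edgeR adjusted p = 0.0014) and 9.55-fold in DKO (3.26, SE 0.19, edgeR adjusted p = 4.94e-06). In SpiB KO its log2 fold change of 0.52 (SE 0.19) had an adjusted p of 0.253, and without LPS control replicate 1 it was 0.81 with an adjusted p of 0.0318. DKO was 3.74-fold above PU.1 cKO (edgeR adjusted p = 0.000305) and 6.67-fold above SpiB KO (edgeR adjusted p = 3.42e-05). The DKO value exceeded the sum of the log2 effects of the 2 separate losses by 1.38 (SE 0.25, edgeR adjusted p = 0.0593). That interaction call was lost without PU.1 cKO replicate 1 (1.22, adjusted p = 0.161), without SpiB KO replicate 1 (1.24, 0.259), without DKO replicate 1 (1.31, 0.193) and with all 24 libraries in the fit (1.34, 0.258). Of all genes, 1.48% were called in the interaction.

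In CD40L-stimulated cells Mxd1 was at 12.7 and 13.9 CPM in control, 56.0 and 35.9 with PU.1 alone lost, 19.1 and 11.2 with SpiB alone lost and 76.4 and 39.6 in DKO. PU.1 cKO and DKO libraries were all above control and SpiB KO, and they overlapped with each other. Mxd1 rose 3.42-fold in PU.1 cKO (log2 fold change 1.77, SE 0.34, edgeR adjusted p = 0.0093) and 4.34-fold in DKO (2.12, SE 0.35, edgeR adjusted p = 0.00247). DKO and PU.1 cKO differed by 0.35 on the log2 scale (SE 0.32), with an edgeR adjusted p of 0.719, and the replicates of each were further apart than the group means. The highest value was in the library with 6.64% Rn45s counts, and without either DKO library the Mxd1 call against control was kept. DKO was 3.83-fold above SpiB KO (edgeR adjusted p = 0.00504).

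In naive cells Mxd1 ran from 9.67 CPM in a control library to 16.3 CPM in a SpiB KO library. The DKO libraries (14.9 and 14.3 CPM) were above both controls (9.67 and 11.2 CPM), and the log2 fold change of 0.49 (SE 0.19, edgeR adjusted p = 0.0961) did not reach the fold threshold. Without naive control replicate 2 it was 0.60 and passed (adjusted p = 0.121). In PU.1 cKO Mxd1 was at 11.1 and 12.5 CPM, overlapping with control.

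After stimulation, plasma cell markers as a sum were higher in PU.1 cKO and DKO, as Mxd1 was. The summed level of 6 of them ran from 831 to 902 CPM in LPS control, 1310 to 1490 in PU.1 cKO, 861 to 959 in SpiB KO and 1890 to 1960 in DKO, in the same order of groups as Mxd1 except that control and SpiB KO overlapped. With CD40L the sums were 1180 to 1480, 2050 to 2400, 1230 to 1550 and 3070 to 3240 CPM. In naive cells they were 574 to 661, 829 to 860, 736 to 871 and 829 to 1060 CPM. There PU.1 cKO stood above control in the sum, while its Mxd1 overlapped with control. Single markers differed from the sum. The effect of DKO on Sdc1 was lower with LPS than in naive cells by -1.46 (SE 0.28, edgeR adjusted p = 0.00155). Tnfrsf17, the gene for BCMA, was at 0 in the LPS control and in the CD40L DKO libraries. The cells had been sorted as negative for CD138, the product of Sdc1. In bulk RNA more cells of a kind and more transcript per cell cannot be told apart, and the part of these markers in the Mxd1 values was not tested.

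Mxd3 and Mxd4 rose in the LPS-stimulated DKO, and in both genes DKO was also called above each of the other mutants. Mxd3 was at 9.17 and 8.62 CPM in control, 7.89 and 8.33 with PU.1 alone lost, 7.97 and 8.93 with SpiB alone lost and 17.5 and 18.4 in DKO. The DKO libraries stood clear of the other 6, which overlapped among themselves apart from PU.1 cKO lying under control. The rise over control was 2.02-fold (log2 fold change 1.01, SE 0.13, edgeR adjusted p = 0.000368), over PU.1 cKO 2.21-fold (edgeR adjusted p = 0.000881) and over SpiB KO 2.13-fold (edgeR adjusted p = 0.000529). The interaction of the losses was 1.22 (SE 0.18, edgeR adjusted p = 0.0211).

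Mxd4 in LPS-stimulated cells was at 19.8 and 9.07 CPM in control, 14.5 and 10.1 with PU.1 alone lost, 19.6 and 22.1 with SpiB alone lost and 44.0 and 37.4 in DKO. The 2 control libraries were far apart, and the DKO libraries were above all others. Mxd4 rose 2.88-fold in DKO against control (log2 fold change 1.52, SE 0.31, edgeR adjusted p = 0.00479) and was 3.28-fold above PU.1 cKO (edgeR adjusted p = 0.0064).

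Against SpiB KO, Mxd4 in LPS-stimulated DKO cells was 1.96-fold higher (edgeR adjusted p = 0.0529), a call lost without SpiB KO replicate 1 (0.86, adjusted p = 0.229) or DKO replicate 1 (0.84, 0.212). The wide control pair decided other Mxd4 calls. Without LPS control replicate 1, SpiB KO was above control by 1.20 on the log2 scale (adjusted p = 0.0188), and without LPS control replicate 2, PU.1 cKO was below it by -0.68 (adjusted p = 0.0893). LPS libraries of the same replicate number deviated together, and with that number as a block Mxd4 was called in SpiB KO against control (log2 fold change 0.61, adjusted p = 0.149, against 0.55 and 0.493 without the block) and in the interaction (1.12, adjusted p = 0.0846, against 1.16 and 0.359).

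These 3 rises made 3 of 8 members called in the LPS-stimulated DKO against control, where 13.6% of all genes were called. In PU.1 cKO 1 of 8 was called (6.67% of all genes) and in SpiB KO 0 of 8 (2.29%), by edgeR as by DESeq2 and voom, with 1 at an unadjusted p under 0.05. DKO against PU.1 cKO gave 3 of 8 (8.1%) and DKO against SpiB KO 3 of 8 (8.09%). With 2 libraries a group the edgeR fit shares the spread over the stage, and an exact permutation test of 2 against 2 libraries could not give a two-sided p under 0.333.

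Myc itself was lower in the LPS-stimulated DKO than in every other library of the stage. It was at 215 and 248 CPM in control, 222 and 219 with PU.1 alone lost, 205 and 220 with SpiB alone lost and 167 and 174 in DKO. The other 3 groups overlapped. The DKO difference from control, a log2 fold change of -0.44 (SE 0.087, edgeR adjusted p = 0.00438) or 1.36-fold lower, passed the adjusted p and was under the fold threshold. It was also -0.37 against PU.1 cKO (adjusted p = 0.0184) and -0.32 against SpiB KO (adjusted p = 0.0341).

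With CD40L the change in Myc had the opposite sign. Myc was at 99.0 and 84.8 CPM in control, 163 and 191 with PU.1 alone lost, 83.3 and 130 with SpiB alone lost and 141 and 174 in DKO. Both groups without PU.1 were above both control and both SpiB KO libraries. Myc rose 1.93-fold in PU.1 cKO (log2 fold change 0.95, SE 0.22, edgeR adjusted p = 0.0212), a call kept under each of 11 alternative settings. In DKO it rose 1.71-fold (0.77, SE 0.22, edgeR adjusted p = 0.0385), a call lost without control replicate 2 (0.67, adjusted p = 0.153) or DKO replicate 2 (0.62, 0.208). In naive cells Myc was at 66.3 and 55.1 CPM in control, 77.9 and 82.0 with PU.1 alone lost and 61.4 and 76.4 CPM in DKO, with a log2 fold change of 0.40 (SE 0.14, edgeR adjusted p = 0.136) in PU.1 cKO that was under the fold threshold.

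Max, the obligate partner, changed little. Its lowest library was at 130 CPM and its highest at 174 CPM over the 3 stages, and it was called in no comparison of genotypes or control stages. The fitted log2 fold change of DKO against control was -0.0028 in naive cells, 0.0032 with CD40L and -0.17 with LPS (edgeR adjusted p = 0.205 for the last).

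**Figure D3:**
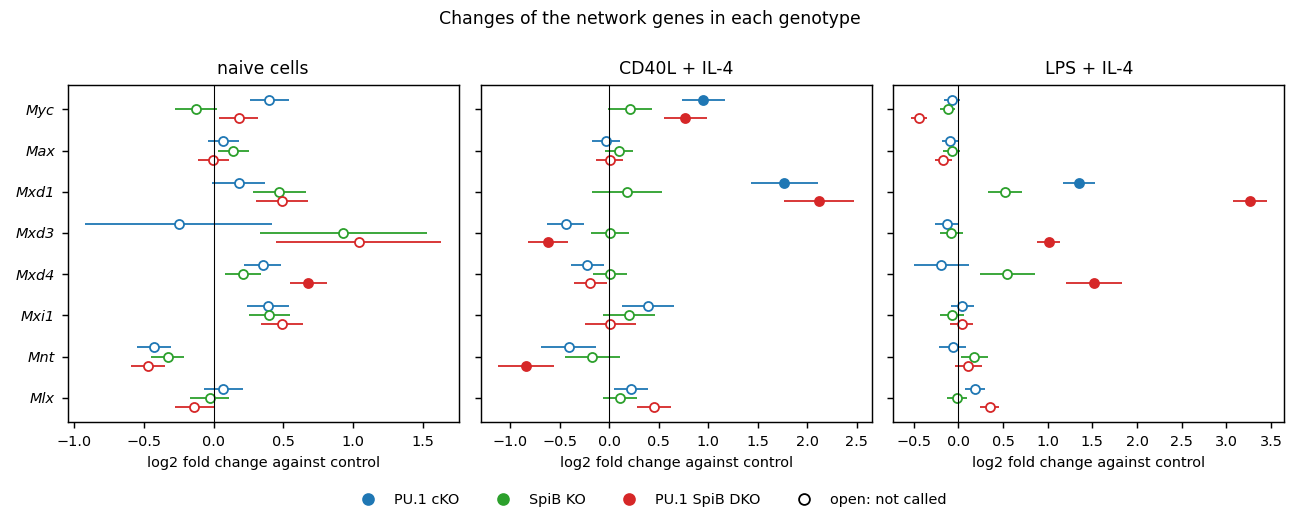
Log2 fold change against control of the 8 tested members in each stage, with bars of 1 standard error from the edgeR fit and filled points for called values. Mxd1 stands out to the right in PU.1 cKO and DKO after stimulation, and Myc lies right of 0 with CD40L and left of 0 in the LPS-stimulated DKO.

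In the CD40L-stimulated DKO 4 of 8 members were called against control, 2 higher (Mxd1 and Myc) and 2 lower (Mxd3 and Mnt), where 13.7% of all genes were called, 5.84% higher and 7.82% lower. Mxd3 was at 41.7 and 43.5 CPM in control, 25.9 and 36.2 with PU.1 alone lost, 48.0 and 37.6 with SpiB alone lost and 28.4 and 27.2 in DKO. DKO was under both control and both SpiB KO libraries and overlapped with PU.1 cKO. Mxd3 fell 1.53-fold against control (log2 fold change -0.62, SE 0.2, edgeR adjusted p = 0.0639), and that call was lost without control replicate 1 (-0.65, adjusted p = 0.178), control replicate 2 (-0.59, 0.153) or DKO replicate 2 (-0.58, 0.253). Against SpiB KO Mxd3 was 1.54-fold lower (edgeR adjusted p = 0.0708), which was lost without SpiB KO replicate 1 (-0.44, adjusted p = 0.4), DKO replicate 1 (-0.65, 0.16) or DKO replicate 2 (-0.60, 0.278).

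Mnt with CD40L was at 73.7 and 49.8 CPM in control, 55.5 and 38.4 with PU.1 alone lost, 67.6 and 42.7 with SpiB alone lost and 40.7 and 28.5 in DKO. In each group replicate 1 was the higher. DKO was below the other genotypes within each replicate number, which was not taken as a pairing at this stage. Both DKO libraries were under both control libraries, and they overlapped with PU.1 cKO. Mnt fell 1.79-fold in DKO (log2 fold change -0.84, SE 0.28, edgeR adjusted p = 0.0779). Without control replicate 1 the value was -0.53 (adjusted p = 0.411) and without DKO replicate 2 it was -0.59 (0.364), and neither was called.

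In PU.1 cKO with CD40L 2 of 8 members were called, Mxd1 and Myc, where 9.36% of all genes were called. SpiB KO gave 0 of 8 by edgeR (0.11% of all genes), with an adjusted p of 1.0 for every member. DKO against SpiB KO gave 2 of 8 (11.4%), Mxd1 higher and Mxd3 lower. Mnt was also called lower there by DESeq2 (-0.67, adjusted p = 0.105), and Myc higher by voom (0.61, 0.0851). Comparing DKO with PU.1 cKO gave 0 of 8 (3.01%). In the interaction 0 of 8 were called (1.17%). DESeq2 and voom also called 0 in these 3 comparisons without a call, and 0 members were at an unadjusted edgeR p under 0.05.

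In naive cells 1 member was called, in 1 comparison of genotypes. Mxd4, a MAX partner of resting and differentiated cells, was at 40.6 and 41.0 CPM in control, 50 and 53.9 with PU.1 alone lost, 43.4 and 50.8 with SpiB alone lost and 61.1 and 69.4 in DKO. Every mutant library was above both controls, and DKO was above the rest. Mxd4 rose 1.60-fold in DKO (log2 fold change 0.68, SE 0.13, edgeR adjusted p = 0.00662), where 14.1% of all genes were called. Without DKO replicate 2 the log2 fold change was 0.56 (adjusted p = 0.0486), under the fold threshold.

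Naive Mnt was lower in every mutant library than in either control. It was at 75.9 and 86.8 CPM in control, 58.2 and 63.0 with PU.1 alone lost, 64.2 and 65.6 with SpiB alone lost and 54.8 and 62.9 in DKO. The log2 fold changes of -0.43 in PU.1 cKO (SE 0.12, edgeR adjusted p = 0.0715) and -0.47 in DKO (SE 0.12, edgeR adjusted p = 0.027) passed the adjusted p and not the fold, and without DKO replicate 2 the latter was -0.59 and passed both (adjusted p = 0.0363). Mxi1 was at 12.2 and 11.7 CPM in control and 17.5 and 16.2 in DKO, a difference of 0.49 (SE 0.15, edgeR adjusted p = 0.0502) that was likewise under the fold threshold.

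The naive SpiB KO and DKO libraries are those with the high sums of plasmacytoid dendritic cell and T cell markers given above, and the part of these markers, in cells sorted as negative for CD3, in the naive Mxd4, Mnt and Mxi1 values was not tested. In naive PU.1 cKO those sums were near control (246 to 265 CPM for the dendritic and 40.3 to 43.8 CPM for the T cell markers). Mxd4 was not called there, with a log2 fold change of 0.35 (edgeR adjusted p = 0.15) under the fold threshold. That value is from another genotype and does not test the part of the markers in SpiB KO or DKO. Naive PU.1 cKO and SpiB KO each gave 0 of 8 members called (8.4% and 6.35% of all genes). DKO against PU.1 cKO, DKO against SpiB KO and the interaction gave 0 of 8 as well (7.21%, 1.97% and 0.936%). DESeq2 and voom called 0 in each of these 5 comparisons, and 4, 3, 1, 1 and 0 members in turn were at an unadjusted edgeR p under 0.05.

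Mlx and Mxi1 were called in no comparison of genotypes within a stage. Mlx was higher in DKO than in control by 0.45 with CD40L (50.5 and 60.3 against 37.7 and 43.7 CPM, SE 0.17, edgeR adjusted p = 0.118) and by 0.35 with LPS (59.2 and 62.2 against 44.0 and 51.3 CPM, SE 0.11, edgeR adjusted p = 0.0322). The groups did not overlap, and both values were under the fold threshold. Mxi1, another MXD protein, lay between 8.66 and 10.2 CPM in all 8 LPS libraries, and with CD40L its DKO libraries (16.2 and 9.82 CPM) spanned both controls (11.3 and 14.5 CPM).

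The remaining values of Mnt, Mxd4 and Mxd3 gave no calls between DKO and control. With LPS, Mnt was at 34.7 and 26.5 CPM in control and 35.5 and 30.3 in DKO (edgeR adjusted p = 0.614). With CD40L, Mxd4 was at 52.4 and 51.9 CPM in control and 50.7 and 40.8 in DKO, where DKO lay below, with a log2 fold change of -0.19 (edgeR adjusted p = 0.5). In naive cells Mxd3 rested on 5 to 24 reads a library, at 0.350 and 0.711 CPM in control and 1.48 and 0.738 in DKO, and its log2 fold change of 1.04 (SE 0.59, edgeR adjusted p = 0.25) was not called.

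Mycn was close to silent. It had 0 reads in each of the 8 naive libraries, which allows a level of up to 0.165 to 0.211 CPM in a library at a floor of 3 counts, a limit of counting error alone. With CD40L it had 0 to 2 reads and with LPS 2 to 16 reads, at most 0.382 CPM, and no test was made.

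Whether an effect of genotype differed between stages was tested as an interaction of genotype and stage over all 24 libraries, with no threshold on the fold. The effect of DKO on Mxd4 was larger with LPS than with CD40L by 1.63 (SE 0.34, edgeR adjusted p = 0.00427), that on Mxd3 by 1.55 (SE 0.29, edgeR adjusted p = 0.00224), and that on Myc was lower by -1.30 (SE 0.25, edgeR adjusted p = 0.00296). These 3 were among 5 of 8 members called in that comparison (28.6% of all genes), and each kept its call under 13 alternative settings. Myc and Mxd3 had passed the adjusted p in opposite directions in the CD40L- and LPS-stimulated DKO, whereas Mxd4 was called with LPS alone. Stage and table of origin cannot be told apart in these differences.

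The effect of DKO on Mxd1 was 1.65 larger with CD40L than in naive cells (SE 0.41, edgeR adjusted p = 0.0131) and 2.70 larger with LPS than in naive cells (SE 0.4, edgeR adjusted p = 0.000147). Extent of Spi1 deletion differed between naive and cultured DKO cells, and it cannot be told apart from stage here. In these comparisons 4 of 8 members (16.8% of all genes) and 3 of 8 (29.6%) were called. For PU.1 cKO, Mxd1 differed between CD40L and naive cells by 1.61 (SE 0.41, edgeR adjusted p = 0.0309), 1 of 8 members called (9.05% of all genes). For both genotypes, CD40L and naive libraries came from separate count tables, so stage and table of origin cannot be told apart between them. Between LPS and CD40L the effect of PU.1 cKO on Myc differed by -1.06 (SE 0.25, edgeR adjusted p = 0.0498), 1 of 8 (3.09%), a call lost without CD40L control replicate 2 (-0.96, adjusted p = 0.164), CD40L PU.1 cKO replicate 2 (-0.93, 0.22), LPS PU.1 cKO replicate 1 (-1.06, 0.18) or LPS control replicate 2 (-0.93, 0.225), with the difference itself close to the value from all libraries. Between LPS and naive cells PU.1 cKO gave 0 of 8 called by edgeR (6.34% of all genes), with 1 at an unadjusted p under 0.05, while voom called 0 and DESeq2 called Mxd1 (log2 difference 1.11, adjusted p = 0.098).

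Genes downstream of the network were followed through a list of 47 genes known to be induced by MYC, taken from general knowledge of MYC biology, and 6 known to be repressed by it. Like the other lists, these were chosen with earlier results of these data known. The share of a list beside that of all genes is therefore a description and not a test. In control cells most of the induced list rose on stimulation, as Myc did with LPS. Of its 47 genes, 35 rose and 0 fell with CD40L (median log2 fold change 1.10, where 17.7% of all genes were called higher and 17.5% lower), and 45 rose and 0 fell with LPS (median 2.35, against 25.2% and 22.4%). Between LPS and CD40L 40 were higher and 0 lower (median 1.5, against 16.9% and 14.3%). Stage and table of origin cannot be told apart where CD40L libraries are compared with those of another stage. Shmt1, for serine hydroxymethyltransferase of one-carbon metabolism, was the largest rise with CD40L (2.45, SE 0.3, edgeR adjusted p = 1.34e-06) and with LPS (4.68, SE 0.32, edgeR adjusted p = 1.72e-10).

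In the LPS-stimulated DKO, 22 of the 47 induced genes fell and 0 rose, which is 46.8% of the list beside 4.81% of all genes called lower. The median log2 fold change was -0.56 against 0.0076 over all genes, and all 47 lay below 0. Ccnd2, for cyclin D2, had the largest fall (-1.42, edgeR adjusted p = 3.86e-05). The count depended on libraries. Without LPS control replicate 2 it was 4, without DKO replicate 1 it was 15, without DKO replicate 2 it was 25 and without LPS control replicate 1 it was 29, with medians from -0.68 to -0.44. It was 22 by DESeq2 and 13 by voom. Plasma cell markers were higher in these DKO libraries, as given above, and their part in the fall of the list was not tested. The part of the changes in Mxd1, Mxd3, Mxd4 and Myc in that fall was not tested either.

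In LPS-stimulated PU.1 cKO 0 induced genes rose and 1 fell (median -0.068, where 2.74% of all genes were called lower), again Ccnd2 (-1.03), and in SpiB KO 0 of 47 were called by edgeR, DESeq2 or voom (median -0.16, 4 at an unadjusted p under 0.05), although all 47 lay below 0 there too. Without LPS control replicate 2 the median in SpiB KO was -0.04. With CD40L the median was above 0 in both groups without PU.1 and -0.039 in SpiB KO, where 0 of 47 genes were called by edgeR, DESeq2 or voom and 0 were at an unadjusted edgeR p under 0.05. In PU.1 cKO 6 rose and 1 fell (median 0.33, where 3.91% of all genes were called higher and 5.45% lower), and in DKO 9 rose and 1 fell (median 0.31, against 5.84% and 7.82%).

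The largest rise of the induced list in the CD40L-stimulated DKO was Odc1, for ornithine decarboxylase of polyamine synthesis (1.27, SE 0.27, edgeR adjusted p = 0.0105), and the fall was Ccnd2 (-1.01, edgeR adjusted p = 0.00798). The count of rises in DKO was 1 without DKO replicate 2, 3 without control replicate 2, 5 without control replicate 1 and 16 without DKO replicate 1, and in PU.1 cKO it was 0 without control replicate 2 and 1 without PU.1 cKO replicate 2. In naive cells 5 rose in PU.1 cKO (median 0.32, 3.16%) and 9 in DKO (median 0.29, 7.39%), 5 without naive control replicate 2, with Shmt1 the largest (1.10, edgeR adjusted p = 0.00436).

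The effect of DKO on the induced list differed between stimuli, which cannot be told apart from table of origin. As an interaction of genotype and stage, 38 of 47 genes were lower with LPS than with CD40L and 0 higher (median difference -0.94, where 15% of all genes were called lower). The count was 22 without LPS control replicate 2, 24 without CD40L DKO replicate 2, and 28 to 43 with any other library left out.

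**Figure D4:**
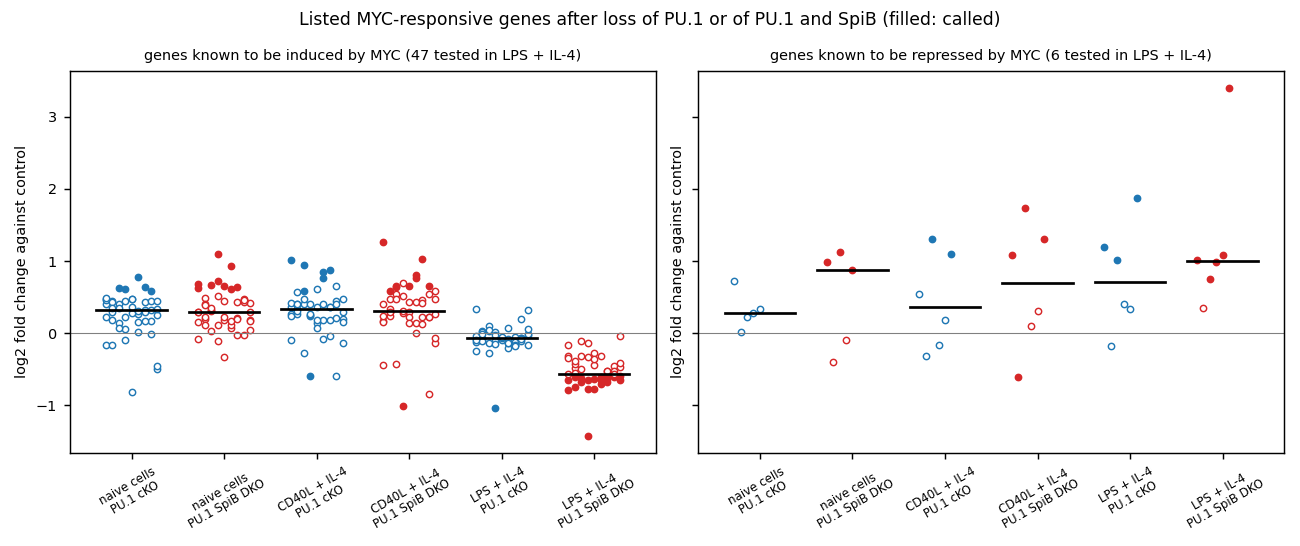
Log2 fold change against control of each gene of the lists known to be induced (47) or repressed (6) by MYC, in PU.1 cKO and DKO at each stage, each point 1 gene, filled where called, and the bar the median. The induced list has its median at -0.56 in the LPS-stimulated DKO and at 0.31 in the CD40L-stimulated DKO.

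The 6 genes known to be repressed by MYC went both ways on stimulation of control cells. Against naive control, Cdkn1a had the largest rise (3.45 with CD40L and 2.06 with LPS). Ndrg1 had the largest fall (-1.75 with CD40L and -4.42 with LPS). In the LPS-stimulated DKO, 5 of the 6 rose against control and 0 fell (median 1.01, where 8.76% of all genes were called higher). Ndrg1, a differentiation and stress gene, rose by 3.40 on the log2 scale (edgeR adjusted p = 3.24e-06). The cell cycle inhibitors Cdkn1a (1.02), Cdkn2c (0.99) and Cdkn2b (0.75) rose, as did Gadd45a (1.08, edgeR adjusted p = 0.0561). In LPS-stimulated PU.1 cKO 3 rose (median 0.71, 3.93% of all genes), led by Ndrg1 (1.88). With CD40L 3 of 6 rose and 1 fell in DKO, Cdkn2b having the largest rise (1.73) and Cdkn1b the fall (-0.61), where 5.84% of all genes were called higher and 7.82% lower. In naive DKO 3 of 5 tested rose (median 0.88, where 7.39% of all genes were called higher). In LPS-stimulated SpiB KO Ndrg1 alone was called (1.54, edgeR adjusted p = 0.00352), where 2.29% of all genes were called. A list of 20 cell cycle genes gave no calls in the LPS-stimulated DKO by edgeR (median -0.096, with 9 at an adjusted p under 0.15, which 48.0% of all genes passed). In LPS-stimulated against naive control 20 of 20 were higher (median 4.96, where 25.2% of all genes were called higher).

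Among cofactors, 14 corepressor genes and 9 coactivators were listed. Of the 14 corepressor genes used by MXD and MNT, such as those for SIN3 and histone deacetylases, 0 were called in the LPS-stimulated DKO by edgeR, with 5 at an adjusted p under 0.15, which 48.0% of all genes passed, and 5 at an unadjusted p under 0.05. In naive DKO 3 of 14 fell (21.4%), Arid4b the most (-0.80), where 6.7% of all genes were called lower. Of the 9 coactivators 1 fell in the LPS-stimulated DKO, Ruvbl2, a helicase that binds MYC (-0.66, edgeR adjusted p = 0.0012), where 4.81% of all genes were called lower. The effect of DKO on 5 of the 9 was lower with LPS than with CD40L (55.6%, against 15% of all genes). In LPS-stimulated against naive control 8 of 9 coactivators and 8 of 14 corepressors rose, where 25.2% of all genes were called higher. Of 7 genes for the turnover of MYC, 0 were called in the LPS-stimulated DKO by edgeR, with 3 at an adjusted p under 0.15 (48.0% of all genes) and 3 at an unadjusted p under 0.05.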

How the data were processed

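RNA from 24 libraries was sequenced. Per the labels and the study's methods, the authors aligned reads with Subread to GRCm38/mm10, counted uniquely mapped reads over RefSeq exons with featureCounts, and deposited raw counts in one table for naive and LPS libraries and another for CD40L libraries. They also deposited log2 RPKM, which was used for levels between genes and as an expression threshold. Counts were analysed with edgeR 4.0.16 (R 4.3.3): TMM scaling, genes with at least 0.5 CPM in 2 libraries, quasi-likelihood tests and Benjamini-Hochberg adjustment over all genes tested (12445 to 13684). Genotypes were compared within a stage over its 8 libraries, and stages over all 24. The CPM of a stage comparison is scaled within the stage and that of control over stages across all 24. A standard error is the log2 fold change divided by the square root of F. Named list genes are the called genes with the largest rise or fall. Alternatives were DESeq2 1.42.0, voom with quantile normalization (limma 3.58.1), RLE scaling, no filter, no RPKM threshold, a replicate block, each library left out, all 24 libraries and control libraries alone; the settings for the MYC-responsive lists were chosen after seeing the data. Scripts were tested on simulated data. Members and lists were chosen with earlier results of these data known. Same-numbered LPS libraries deviated together (6 of 6 correlations, 0.386 to 0.514). Those of the other stages did not pass 0.1 in every pair (naive 0.0918 to 0.25, CD40L -0.0702 to 0.266). The main tests carried no replicate term at any stage, LPS included, and the replicate block was an alternative setting only. One extraction label names CD40L culture for all samples; stages follow the sample titles. Replicates are biological, by the labels.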

Additional observations from a re-analysis of the deposited data

Results flagged for a closer look

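The effect of genotype on 6 members differed between stages, by an edgeR interaction test over all 24 libraries, at an adjusted p under 0.15. Each value is the log2 effect against control at one stage minus that at another. For PU.1 cKO, Mxd1 differed by 1.61 between CD40L and naive cells, and Myc by -1.06 between LPS and CD40L, with the libraries that decide the latter named above. For DKO, Mxd1 differed by 1.65 between CD40L and naive cells and by 2.70 between LPS and naive cells. Between LPS and CD40L, Mxd4 differed by 1.63, Mxd3 by 1.55 and Myc by -1.30 in DKO. Contrasts that involve the same stage share its control libraries, so these values are not independent of each other. Where CD40L is compared with another stage, stage and table of origin cannot be told apart.

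Other differences for DKO were lost without single libraries. Between CD40L and naive cells, Mxd3 differed by -1.63 (adjusted p = 0.0327), which was -1.24 without naive control replicate 1 (0.164), -1.09 without naive DKO replicate 1 (0.27) and -1.06 by voom (0.369), and it rests on 5 and 10 reads in naive control. Mxd4 differed by -0.85 (0.13) and lost the call without any 1 of 7 of the 8 libraries compared, CD40L DKO replicate 1 being the exception (values -0.95 to -0.70). Mlx differed by 0.60 (0.0827) and by 0.47 to 0.51 without CD40L control replicate 1, CD40L DKO replicate 2, naive control replicate 1 or naive DKO replicate 2, each not called.

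Between LPS and naive cells, Myc differed by -0.69 (0.0667), and was not called without naive control replicate 2 (-0.54), naive DKO replicate 2 (-0.51), LPS DKO replicate 1 (-0.68) or LPS control replicate 2 (-0.60). Mxd4 differed by 0.78 (0.114), and was not called without naive control replicate 1 (0.76) or 2 (0.81), naive DKO replicate 1 (0.68), LPS DKO replicate 1 (0.64) or LPS control replicate 2 (0.28). Between LPS and CD40L, Mxd1 differed by 1.05 (0.0787) and Mnt by 0.87 (0.0687). Both lost the call without CD40L DKO replicate 2 (0.65 and 0.64), LPS DKO replicate 1 (1.0 and 0.77) or LPS control replicate 2 (0.79 and 0.71), Mxd1 also without CD40L control replicate 2 (0.97) and Mnt without CD40L control replicate 1 (0.57).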

How the results depend on the processing

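Of 2544 member values recomputed under alternative settings, 2442 stayed on their side of the threshold, 54 lost a call, 48 gained one and 0 changed direction while called. Of 48 called values, 31 kept their call under every alternative. Counts of called members moved by over 1.5 times as follows, and smaller moves are not listed. With the replicate block, LPS SpiB KO against control gave 1 instead of 0, and the stage differences gave 2 instead of 1 (PU.1 cKO, CD40L minus naive), 2 instead of 0 (PU.1 cKO, LPS minus naive) and 5 instead of 3 (DKO, LPS minus naive). Without the filter on low counts, PU.1 cKO gave 2 for CD40L minus naive and 3 for LPS minus naive, where DESeq2 gave 1. With all 24 libraries in the fit the LPS interaction gave 1 instead of 2. The cause of these moves was not tested.

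Leaving out each library in turn gave 1 to 2 members for naive DKO against control, 1 to 4 for CD40L DKO against control and against SpiB KO, 1 to 2 for LPS PU.1 cKO and 0 to 2 for LPS SpiB KO against control, 1 to 3 for the LPS interaction and 2 to 4 for CD40L against naive control. For stage differences it gave 0 to 1 for PU.1 cKO with LPS against either stage, and for DKO 1 to 6 (CD40L minus naive), 1 to 4 (LPS minus naive) and 3 to 5 (LPS minus CD40L). LPS DKO against control gave 3 each time. With 1 library left in a group, it was assumed to vary like the other groups. In naive cells 5 of 6 and in CD40L cells 4 of 6 correlations of same-numbered libraries were over 0.1, so the number was not taken as a pairing there. Low counts limit Mxd3 in naive cells and Mycn.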

Other observations

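Among other genes of the network, Bmyc, a MYC relative that lacks the DNA-binding region, fell whenever PU.1 was lost. Its log2 fold change against control was -2.37 in naive PU.1 cKO, -2.71 with CD40L and -1.64 with LPS, and -1.12, -2.66 and -1.59 in DKO in the same order (edgeR adjusted p at most 0.000614). In SpiB KO it was -0.20, -0.60 and -0.28 and not called. Mycl rose in naive SpiB KO (3.11, SE 0.32, edgeR adjusted p = 0.000533) and naive DKO (3.41, SE 0.32, edgeR adjusted p = 0.000141), the groups with high sums of plasmacytoid dendritic cell markers, in cells sorted as negative for CD3 and CD138, and the part of those markers in the Mycl values was not tested. Mycbp rose in the CD40L-stimulated DKO (0.68, edgeR adjusted p = 0.0278).

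The genes whose mean log2 CPM over the 12 groups followed each member most closely are given as a description, since groups share libraries in their scaling and stage dominates the pattern. For Myc these were Pus1 (Pearson r = 0.99), Eif4e2 (0.988) and Pgd (0.985), and for Mxd1 the immunoglobulin segments Ighj1 (0.95), Ighv14-3 (0.943) and Ighv1-78 (0.942). Mxd3 was closest to Oxct1 (0.995), Mxd4 to Plgrkt (0.981), Mnt to Evl (0.995), Mlx to Mob4 (0.98), Mxi1 to Pigt (0.95) and Max to Sdr39u1 (0.922). Among members, Myc and Mnt ran opposite (-0.936), as did Mxd3 and Mlx (-0.912) and Myc and Mxd4 (-0.775).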
